A study of Mus musculus with 9 samples.

Results

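The genes described here are 47 genes of the actin cytoskeleton and of cell motility, taken by symbol from read counts of sorted monocytes. Each of the 47 was listed once among the 23238 gene symbols of every library, and all 47 passed the expression filter that left 10107 genes for testing. The series holds 9 QuantSeq 3′ libraries, in which reads come from the 3′ end of each transcript, in 3 groups of 3. Blood_Normal holds blood monocytes of untreated normal mice. Blood_NMO holds blood monocytes of mice with a model of neuromyelitis optica (NMO), an antibody-mediated disease that damages astrocytes, and Brain_NMO holds monocytes recovered from the brains of such mice. The model was a single-sided injection of patient NMO-IgG with human complement into the striatum, and all cells were collected on day 1. All mice were female wild-type C57BL/6N animals of 12 weeks, and cells of 5 mice were pooled for each library, so the spread between libraries is one between pools. Cells were sorted as CD45+CD11b+P2ry12-Ly6C+Ly6G-. Blood cells came from a density gradient, while brain cells came from tissue digested with enzymes and cleared of myelin on Percoll. Among the libraries analysed here there was no group of monocytes from normal brain and none from mice injected with control IgG. In any comparison of brain with blood, the tissue, the isolation procedure and local effects of the injection and disease therefore cannot be told apart. Brain_NMO and Blood_NMO share the NMO model, whereas Brain_NMO and Blood_Normal also differ in it.

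Monocytes crawl along and through vessel walls by building branched actin networks at the leading edge and contracting myosin-bound actin at the rear. Nucleation promoters such as WASP and WAVE proteins start new branches through the Arp2/3 complex, and profilin, cofilin and the thymosins control the pool of free actin monomers. Capping, severing and elongation factors set filament length, talin, kindlin and vinculin tie filaments to integrins, and ezrin and moesin tie them to the plasma membrane. Vimentin builds intermediate filaments, a separate cytoskeletal system that is prominent in migrating leukocytes.

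Total counts ranged from 7584649 to 10419647 per library, and the 47 genes together took between 2.92% (Blood_NMO replicate 3) and 4.58% (Brain_NMO replicate 1) of them. The ribosomal RNA entry Rn45s took 28.4% to 43.6%. Levels are given as CPM, read counts scaled to a common library total, with TMM factors, which correct for differences in library composition. One library stood apart. Blood_NMO replicate 3 had a count for 4567 genes, against 6473 to 11556 in the other 8 libraries, and it lay below both of its group mates for 37 of the 47 genes (78.7%) and for 65.6% of all genes tested. It lay under 0.5 times the lower of its mates for 40.4% of the 47 genes and for 58.6% of all genes tested. The floor of detection was set at 3 counts, or 0.271 to 0.429 CPM depending on the library, and it covers counting error only. Blood_NMO replicate 3 was at 0 for Capg, Gsn and Vasp, Brain_NMO replicate 2 was at 0 for Evl and Vcl, and none of the 47 genes was at or under the floor in the other 7 libraries. Results for the 47 genes and their ratios are therefore also given without these 2 libraries where they turn on them. All 10 transcripts of a monocyte marker list were present in each group, with a summed level of 4484 to 8814 CPM over the 9 libraries. Single markers moved in both directions. Ly6c2 (59.1 to 435 CPM in brain, 460 to 928 CPM in blood) and Ptprc (463 to 1004 and 1143 to 1882 CPM) were lower in all brain libraries. Ccr2 (781 to 1290 and 89.3 to 687 CPM), Cd14 (676 to 710 and 0 to 397 CPM) and Itgam (413 to 649 and 297 to 389 CPM) were higher. The others overlapped between brain and blood.

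The 47 genes were well expressed. Their median level was 315 CPM, where the median of all genes tested was 24.2 CPM. Replicates also differed less than for most genes, but genes of like level were not compared. A small spread is therefore not shown to be particular to the 47 genes. The median coefficient of variation of the 47 genes within a group was 20.5% in Blood_Normal, 33.8% in Blood_NMO and 27.6% in Brain_NMO, and the median over all genes tested was 73.3%, 90.1% and 91.7%. Without replicate 3, the Blood_NMO values were 12.4% and 34.2%. The summed level of the 47 genes was 39979, 34888 and 33301 CPM in Blood_Normal replicates 1, 2 and 3, 41062, 38510 and 19992 CPM in Blood_NMO and 53710, 37534 and 34873 CPM in Brain_NMO. The 3 groups overlapped in this sum. Blood_NMO replicate 3 was the lowest of the 9 libraries for 26 of the 47 genes, and Brain_NMO replicate 1 was the highest for 16. Actb alone took 22.6% to 47.8% of the counts of the 47 genes. In bulk RNA of sorted cells, fewer expressing cells and less RNA per cell cannot be told apart.

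**Figure D1:**
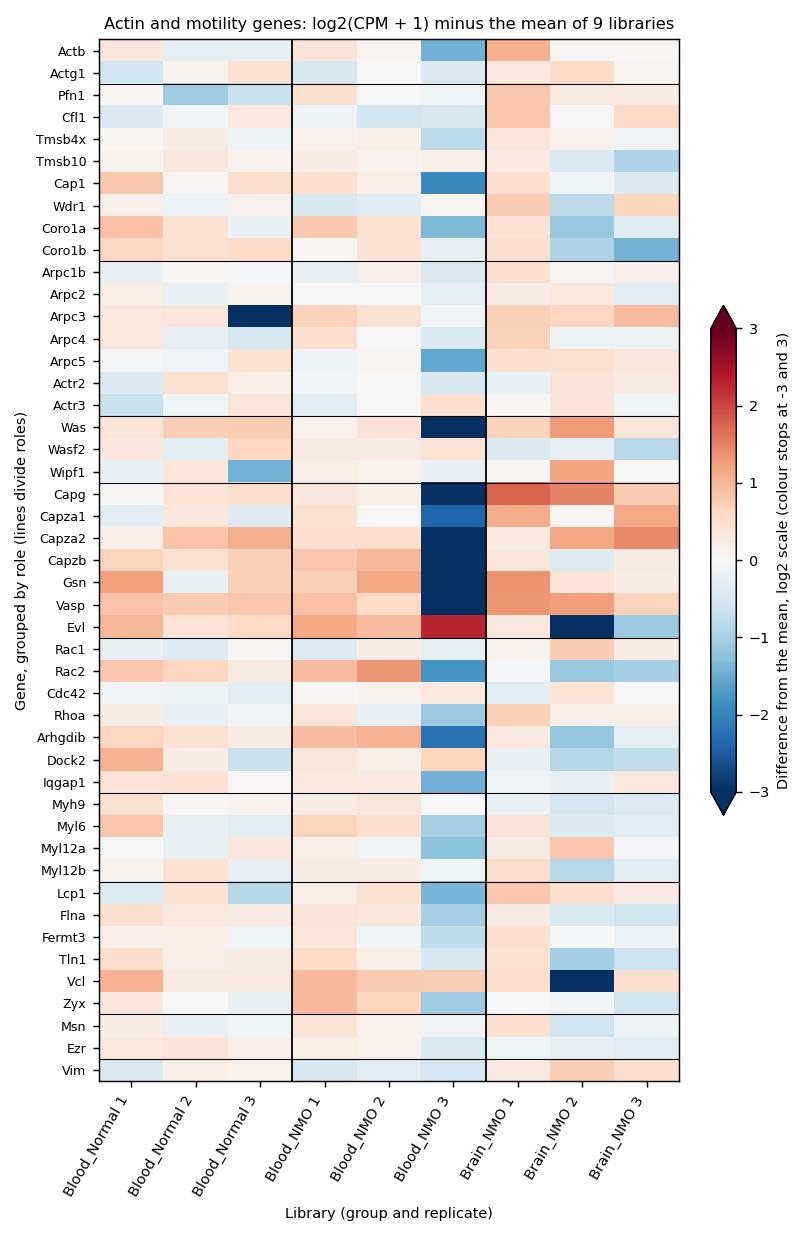
Each row is 1 of the 47 genes, grouped by role, and each column is 1 library; colour is log2(CPM + 1) minus the mean of the 9 libraries, and the scale stops at -3 and 3. The dark blue cells of the Blood_NMO 3 column include Capg, Gsn and Vasp, which were at 0 CPM there, and the dark cells of Brain_NMO 2 are Evl and Vcl.

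None of the 47 genes differed between any groups at an adjusted p under 0.05 by edgeR's quasi-likelihood test with Benjamini-Hochberg adjustment over all 10107 genes. At this threshold, 0.247% of all genes tested (25 genes) were called between Brain_NMO and Blood_NMO (0.0198% higher and 0.228% lower in brain). The share was 0% between Blood_NMO and Blood_Normal. Between Brain_NMO and Blood_Normal it was 0.247% (0.0297% higher and 0.218% lower), and between Brain_NMO and the mean of both blood groups 0.435% (0.139% higher and 0.297% lower). The balance of these calls moved with the scaling: of the 57 genes called against both blood groups with RLE factors, 27 were higher and 30 lower, and of the 36 called over Blood_Normal with library sizes alone, 8 were higher and 28 lower. Over Blood_Normal the balance reversed in a fit to the compared groups alone (15 higher and 8 lower) and with limma-voom (27 higher and 6 lower). Before adjustment, 2 of the 47 genes were higher in Brain_NMO than in Blood_NMO at a p under 0.05 (Vim and Cfl1) and 0 were lower, where 1.48% of all genes tested were higher and 3.84% lower. Against both blood groups, 1 was higher (Vim, background 2.62%) and 3 were lower (Rac2, Dock2 and Myh9, background 4.26%). Against Blood_Normal, 0 of the 47 genes passed in either direction, with backgrounds of 1.75% higher and 4.07% lower. These backgrounds include many genes of low count. Among genes with 10 or more counts in every library, the backgrounds over Blood_NMO were 5.76% higher and 5.88% lower. Of the 41 of the 47 genes kept there, 3 were higher (Cfl1, Arpc5 and Vim) and 1 was lower (Dock2). DESeq2's test called 0 of the 47 genes at an adjusted p under 0.05 in each of these comparisons and passed 0 before adjustment. The counts before adjustment moved with the scaling: over Blood_NMO, 5 of the 47 genes were higher with RLE factors (background 1.77%) and 3 lower with library sizes alone (background 4.67%). These comparisons share libraries and are not independent of each other.

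The median log2 fold change of the 47 genes between Brain_NMO and Blood_NMO was 0.20, and that of all genes tested was 0.05. Of the 47 fitted values, 28 lay above 0 and 19 below. Without Blood_NMO replicate 3 the median was -0.0011, and that of all genes tested was -0.16. The median standard error (SE) was 0.48 for the 47 genes and 2.29 for all genes tested. For 7 of the 47 genes (14.9%) the 95% interval of the fold change lay wholly within a 2-fold change in either direction, as it did for 0.673% of all genes tested. For the remaining 40 genes a 2-fold change was not excluded by the interval. All genes tested had a lower median level, and genes of like level were not compared.

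**Figure D2:**
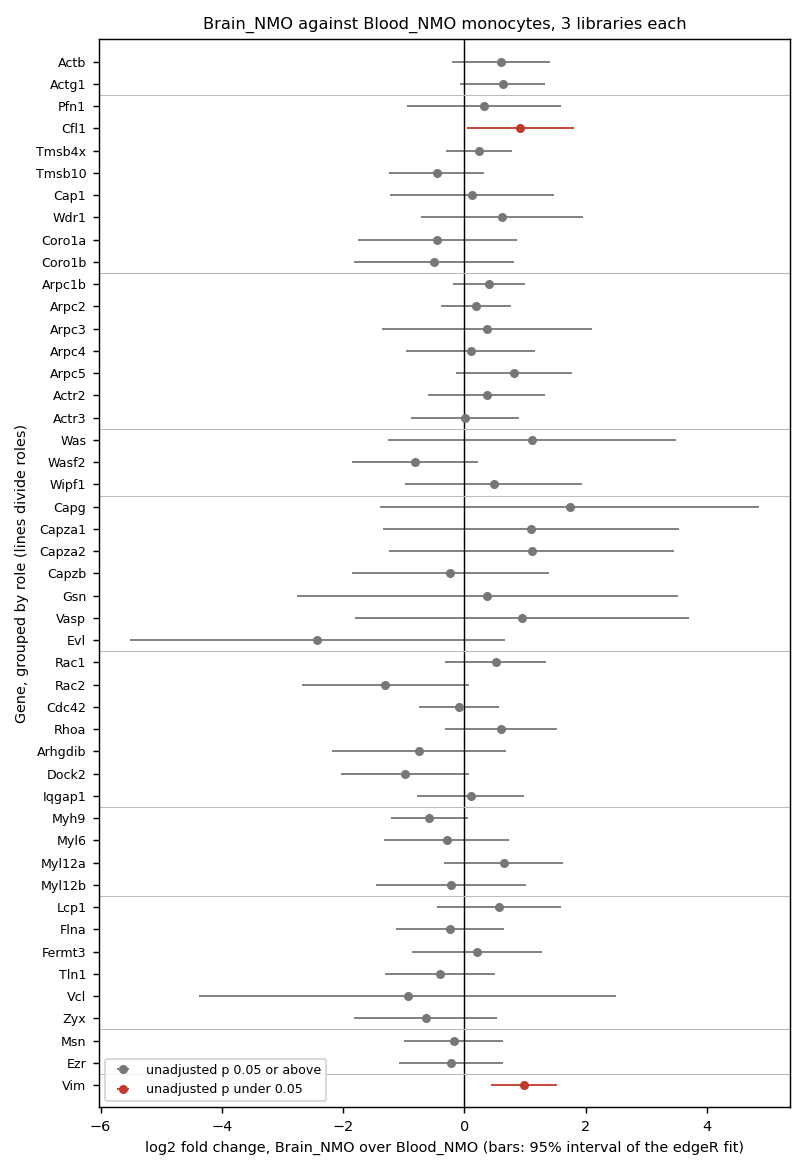
Points are log2 fold changes of Brain_NMO over Blood_NMO for the 47 genes, grouped by role, with bars for the 95% interval of the edgeR fit (3 libraries a group). The bars of Vim and Cfl1 lie wholly above 0; all other bars cross 0, and Capg, Gsn, Vasp, Evl and Vcl, which had a library at 0, have some of the widest.

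Vim and Cfl1 were the 2 genes higher in brain before adjustment, and Dock2 and Myh9 were among the 3 lower against both blood groups, so their upstream sequences are shown. Each is the 250 bases before the RefSeq start of the gene in GRCm38.p6, written 5′ to 3′ on the gene's own strand. Capitals mark GGGCGG (a GC box), the CCAAT box, the TATAAA box and the CArG box, the element bound by serum response factor, on either strand. The windows are chr2:13574061-13574310 (plus strand) for Vim, chr19:5490205-5490454 (plus strand) for Cfl1, chr15:77842176-77842425 (minus strand) for Myh9 and chr11:34783906-34784155 (minus strand) for Dock2.
Vim: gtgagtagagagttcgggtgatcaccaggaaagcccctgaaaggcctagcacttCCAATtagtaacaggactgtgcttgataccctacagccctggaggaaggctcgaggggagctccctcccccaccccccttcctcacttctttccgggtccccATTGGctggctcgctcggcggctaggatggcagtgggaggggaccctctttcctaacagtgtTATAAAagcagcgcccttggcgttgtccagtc
Cfl1: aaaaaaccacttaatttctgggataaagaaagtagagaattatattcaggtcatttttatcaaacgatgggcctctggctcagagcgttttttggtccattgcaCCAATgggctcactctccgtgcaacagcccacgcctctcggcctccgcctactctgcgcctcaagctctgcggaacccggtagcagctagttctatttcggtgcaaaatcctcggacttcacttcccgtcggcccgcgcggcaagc
Myh9: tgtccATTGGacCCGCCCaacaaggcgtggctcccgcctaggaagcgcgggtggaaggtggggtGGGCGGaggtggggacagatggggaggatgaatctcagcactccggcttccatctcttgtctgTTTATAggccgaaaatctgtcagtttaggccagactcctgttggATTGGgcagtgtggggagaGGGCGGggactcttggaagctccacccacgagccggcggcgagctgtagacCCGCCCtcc
Dock2: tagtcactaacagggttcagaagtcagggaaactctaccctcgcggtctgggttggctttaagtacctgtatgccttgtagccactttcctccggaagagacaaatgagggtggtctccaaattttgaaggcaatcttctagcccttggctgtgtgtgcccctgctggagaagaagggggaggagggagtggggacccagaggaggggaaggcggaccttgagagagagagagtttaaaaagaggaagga
The Vim window held TATAAA 32 bases before the start and CCAAT at 196 and 94 bases, while the Cfl1 window held a single CCAAT, at 146 bases. The Myh9 window held 4 GC boxes, and the Dock2 window held none of the 4 motifs. Windows of the same length were found for 43 of the 47 genes (Actb, Coro1b, Rac1 and Rac2 had none). Some genes have more than 1 start, and these 43 had 56 windows, of which 34 held GGGCGG, 14 CCAAT, 4 TATAAA and 4 the CArG box (those of Actg1, Arpc4, Myl6 and Vcl). Among all 32851 promoter windows of this length, 32.7% held GGGCGG, 33.8% CCAAT, 12.4% TATAAA and 1.47% the CArG box. These are matches of letters only.

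Vim encodes vimentin, the intermediate filament protein. Its level was 2220, 3003 and 2505 CPM in Brain_NMO replicates 1, 2 and 3, 1266, 1452 and 1207 CPM in Blood_NMO and 1342, 2069 and 1939 CPM in Blood_Normal. All 3 brain libraries lay above all 6 blood libraries, with a mean of 2576 ± 396 CPM (SD, n = 3) in Brain_NMO and 1308 ± 128 CPM in Blood_NMO. The log2 fold change of Brain_NMO over Blood_NMO was 0.98 (SE 0.25, adjusted p = 0.298), and over both blood groups it was 0.75 (SE 0.21, adjusted p = 0.259). Over 20 alternative settings the first value ranged from 0.85 to 1.08, with adjusted p from 0.0135 to 0.893, and the unadjusted p was under 0.05 in 19 of them. Between Blood_NMO and Blood_Normal the log2 fold change was -0.45 (SE 0.25), and the groups overlapped. The summed level of 7 neutrophil markers was also higher in brain, at 382 to 1498 CPM against 82.6 to 294 CPM in blood. Much of it was S100a8 (147 to 808 CPM in brain) and S100a9 (78.4 to 656 CPM). Mmp8 overlapped, Cxcr2 was at 0.562 CPM or lower in every library, and Retnlg was at 0 in the brain libraries. The sum of 10 microglial markers was 827 to 970 CPM in brain and 0.0904 to 394 CPM in blood, where Tmem119, Olfml3, Gpr34 and Fcrls were at 0 in all 6 libraries. Its largest part in each brain library was Cx3cr1 (295 to 541 CPM), which overlapped with blood (0.0904 to 320 CPM). P2ry12 overlapped too (9.89 to 69.3 CPM in brain, 0 to 43.2 CPM in blood). Endothelial markers summed to 114 to 742 CPM in brain and 5.59 to 115 CPM in blood. The sort took CD45+CD11b+ cells without Ly6G or P2ry12, a gate meant to leave out neutrophils, microglia and endothelial cells. The part of these transcripts in the Vim values was not tested.

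The actin genes themselves were high and variable. Actb encodes cytoplasmic beta-actin and measured 25667, 12865 and 12669 CPM in Brain_NMO, 16095, 13020 and 4513 CPM in Blood_NMO and 15436, 10190 and 10120 CPM in Blood_Normal. Replicate 1 was the highest library of each group, and the groups overlapped. Brain_NMO over Blood_NMO gave a log2 fold change of 0.61 (SE 0.37, adjusted p = 0.960), which became 0.24 without Blood_NMO replicate 3 and 0.19 without Brain_NMO replicate 1. Platelet transcripts, which also mark replicate 1 of both blood groups, summed to 3155 and 2691 CPM in those 2 libraries, 502 to 868 CPM in the other 4 blood libraries and 0 to 39.5 CPM in brain. Their part in the Actb values was not tested. Actg1, the gamma-actin gene, measured 1353, 1641 and 1159 CPM in Brain_NMO, 761, 1111 and 809 CPM in Blood_NMO and 728, 1185 and 1509 CPM in Blood_Normal. The brain libraries lay above the Blood_NMO libraries (log2 fold change 0.63, SE 0.33, adjusted p = 0.802) and overlapped Blood_Normal. Reads with more than 1 alignment entered the counts, so values of near-identical genes and of genes with many processed copies, Actb and Actg1 among them, are uncertain.

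Cfl1 was the only gene among the 8 of monomer binding and filament turnover that passed a p under 0.05 before adjustment in the comparison of the NMO groups. It encodes cofilin, which severs and depolymerises actin filaments. It measured 652, 367 and 553 CPM in Brain_NMO, 332, 242 and 256 CPM in Blood_NMO and 273, 347 and 457 CPM in Blood_Normal. Every brain library was above every Blood_NMO library, while Brain_NMO replicate 2 lay inside the range of Blood_Normal. The log2 fold change over Blood_NMO was 0.92 (SE 0.41, adjusted p = 0.802) and over both blood groups 0.73 (SE 0.35, adjusted p = 0.618). Among the 9 fits that each left out a library, the unadjusted p over Blood_NMO was under 0.05 in those without Blood_Normal replicate 3, Blood_NMO replicate 3 or Brain_NMO replicate 2 and not in the others.

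Pfn1 encodes profilin, which loads monomers onto growing filaments. It measured 237, 166 and 160 CPM in Brain_NMO, 188, 137 and 124 CPM in Blood_NMO and 142, 63.8 and 84.8 CPM in Blood_Normal. The brain libraries overlapped those of Blood_NMO and lay above those of Blood_Normal (log2 fold change 0.95, SE 0.60, adjusted p = 0.918). The thymosins bind actin monomers and keep them from polymerising. Tmsb4x measured 5304, 4437 and 3779 CPM in Brain_NMO, 4472, 4620 and 2322 CPM in Blood_NMO and 4233, 4828 and 3677 CPM in Blood_Normal, with a log2 fold change over Blood_NMO of 0.24 (95% interval -0.30 to 0.79). Tmsb10 measured 714, 427 and 310 CPM in Brain_NMO, 690, 641 and 664 CPM in Blood_NMO and 634, 744 and 631 CPM in Blood_Normal. The 6 blood libraries of Tmsb10 were close together, and 2 of the 3 brain libraries lay below all of them (log2 fold change over both blood groups -0.46, SE 0.32, adjusted p = 0.908).

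The coronins Coro1a and Coro1b take part in the disassembly of branched networks. Coro1a, the leukocyte form, measured 300, 100 and 171 CPM in Brain_NMO, 389, 302 and 87.0 CPM in Blood_NMO and 405, 301 and 193 CPM in Blood_Normal, and the groups overlapped. Coro1b measured 202, 75.5 and 53.6 CPM in Brain_NMO, 151, 196 and 124 CPM in Blood_NMO and 225, 199 and 215 CPM in Blood_Normal. It was the only one of the 47 genes lower in all Blood_NMO than in all Blood_Normal libraries (log2 fold change -0.44, SE 0.61, adjusted p = 1). The remaining genes of this role, Cap1 (44.7 to 302 CPM) and Wdr1 (74.9 to 222 CPM), overlapped between all groups.

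All 7 genes of the Arp2/3 complex, which nucleates branched actin, had a fitted log2 fold change above 0 in Brain_NMO over Blood_NMO, as had 5193 of the 10107 genes tested. Their median was 0.37 (range 0.016 to 0.82), 0 of the 7 passed a p under 0.05 before adjustment, and 1 of the 7 was higher in brain without overlap, against 6.3% of all genes tested. Over Blood_Normal the 7 values were again above 0, with a median of 0.30, but the same brain libraries enter both comparisons. The shared sign did not hold under all 20 alternative settings. Over Blood_NMO it held in 15 for Actr3, 17 for Arpc4, 19 for Arpc2 and 20 for the others. Over Blood_Normal it held in 17 for Actr2, 18 for Arpc2, 19 for Actr3 and Arpc4 and 20 for the others. The 7 genes belong to 1 complex and were measured in the same libraries, so they are not separate observations.

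Arpc5, a small structural subunit, measured 597, 570 and 526 CPM in Brain_NMO, 378, 440 and 142 CPM in Blood_NMO and 405, 389 and 578 CPM in Blood_Normal. The brain libraries were above the 3 Blood_NMO libraries, at a log2 fold change of 0.82 (SE 0.44, adjusted p = 0.814), or 0.48 without Blood_NMO replicate 3. Arpc1b, a regulatory subunit found in leukocytes, measured 1763, 1327 and 1408 CPM in Brain_NMO, 1083, 1401 and 918 CPM in Blood_NMO and 1070, 1319 and 1216 CPM in Blood_Normal. It did not overlap with Blood_Normal, where the difference between the closest libraries was small (log2 fold change 0.32, SE 0.28, adjusted p = 1). Arpc3 measured 226, 212 and 267 CPM in Brain_NMO, 225, 189 and 130 CPM in Blood_NMO and 171, 179 and 7.72 CPM in Blood_Normal, and its value in Blood_Normal replicate 3 was far below the other 8 libraries. The log2 fold change of Arpc3 over Blood_Normal was 0.98 with that library and 0.44 without it.

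Arpc2, which holds the complex to the mother filament, measured 1672, 1787 and 1152 CPM in Brain_NMO, 1421, 1440 and 1160 CPM in Blood_NMO and 1603, 1232 and 1537 CPM in Blood_Normal. Its fold change was one of the better bounded, with a log2 value of 0.20 and a 95% interval of -0.38 to 0.78 between the NMO groups. The actin-related proteins form the template of the new branch. Actr2 measured 231, 353 and 324 CPM in Brain_NMO, 249, 265 and 189 CPM in Blood_NMO and 198, 368 and 309 CPM in Blood_Normal. Actr3 measured 414, 530 and 371 CPM in Brain_NMO, 327, 401 and 572 CPM in Blood_NMO and 256, 373 and 522 CPM in Blood_Normal. Both overlapped between all groups, as did Arpc4 (163 to 383 CPM).

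None of the 3 nucleation promoters passed a p under 0.05 before adjustment. Wasf2 encodes WAVE2, which activates the Arp2/3 complex downstream of Rac. It measured 158, 173 and 119 CPM in Brain_NMO, 258, 253 and 284 CPM in Blood_NMO and 268, 167 and 333 CPM in Blood_Normal. The brain libraries lay below the Blood_NMO libraries (log2 fold change -0.82, SE 0.48, adjusted p = 0.894), and Blood_Normal replicate 2 lay among them. Was encodes WASP, the haematopoietic promoter that acts downstream of Cdc42. It measured 90.5, 136 and 72.6 CPM in Brain_NMO, 61.6, 75.3 and 1.08 CPM in Blood_NMO and 73.0, 94.1 and 94.7 CPM in Blood_Normal. Its log2 fold change over Blood_NMO was 1.11 (SE 1.11) with Blood_NMO replicate 3 and 0.55 without it. Wipf1, the WASP-interacting protein gene, ranged from 42.3 to 258 CPM and overlapped between all groups.

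Of the 7 capping, severing and elongation genes, Capg and Evl did not overlap between brain and either blood group, in opposite directions. Capg encodes a macrophage capping protein of the gelsolin family. It measured 149, 123 and 74.1 CPM in Brain_NMO, 54.9, 49.1 and 0 CPM in Blood_NMO and 44.8, 57.8 and 62.2 CPM in Blood_Normal. All 3 brain libraries lay above all 6 blood libraries, but the fit was imprecise. Over both blood groups its log2 fold change was 1.40 (SE 1.18, adjusted p = 1.00), and without Blood_NMO replicate 3 it was 1.12. Evl, an Ena/VASP protein that speeds filament elongation, measured 57.4, 0 and 20.5 CPM in Brain_NMO, 103, 88.4 and 226 CPM in Blood_NMO and 91.5, 61.3 and 69.3 CPM in Blood_Normal. All brain libraries lay below all blood libraries, with a log2 fold change over both blood groups of -1.97 (SE 1.31, adjusted p = 0.863) that was -1.37 without Brain_NMO replicate 2.

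Blood_NMO replicate 3 was the lowest of the 9 libraries for the other 5 genes of this role. Capzb, the beta subunit of the barbed-end capping protein, measured 432, 251 and 406 CPM in Brain_NMO, 584, 673 and 22.1 CPM in Blood_NMO and 533, 463 and 550 CPM in Blood_Normal. The brain libraries lay below those of Blood_Normal (log2 fold change -0.51, SE 0.76). Against Blood_NMO the log2 fold change of Capzb was -0.23 with replicate 3 and -0.78 without it. The alpha subunits Capza1 and Capza2 are encoded by separate genes. Capza1 measured 93.9, 44.1 and 94.1 CPM in Brain_NMO, 58.9, 42.4 and 7.32 CPM in Blood_NMO and 33.6, 54.3 and 32.3 CPM in Blood_Normal. Capza2 measured 127, 234 and 284 CPM in Brain_NMO, 148, 149 and 0.542 CPM in Blood_NMO and 120, 188 and 221 CPM in Blood_Normal. Both alpha subunit genes overlapped between all groups. Gsn, the gelsolin gene, measured 119, 59.7 and 53.5 CPM in Brain_NMO, 75.8, 103 and 0 CPM in Blood_NMO and 109, 38.9 and 75.2 CPM in Blood_Normal. Vasp measured 354, 336 and 224 CPM in Brain_NMO, 258, 213 and 0 CPM in Blood_NMO and 256, 240 and 248 CPM in Blood_Normal. Outside the library at 0, Vasp varied by less than a 2-fold change, and brain and blood overlapped for both genes.

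**Figure D3:**
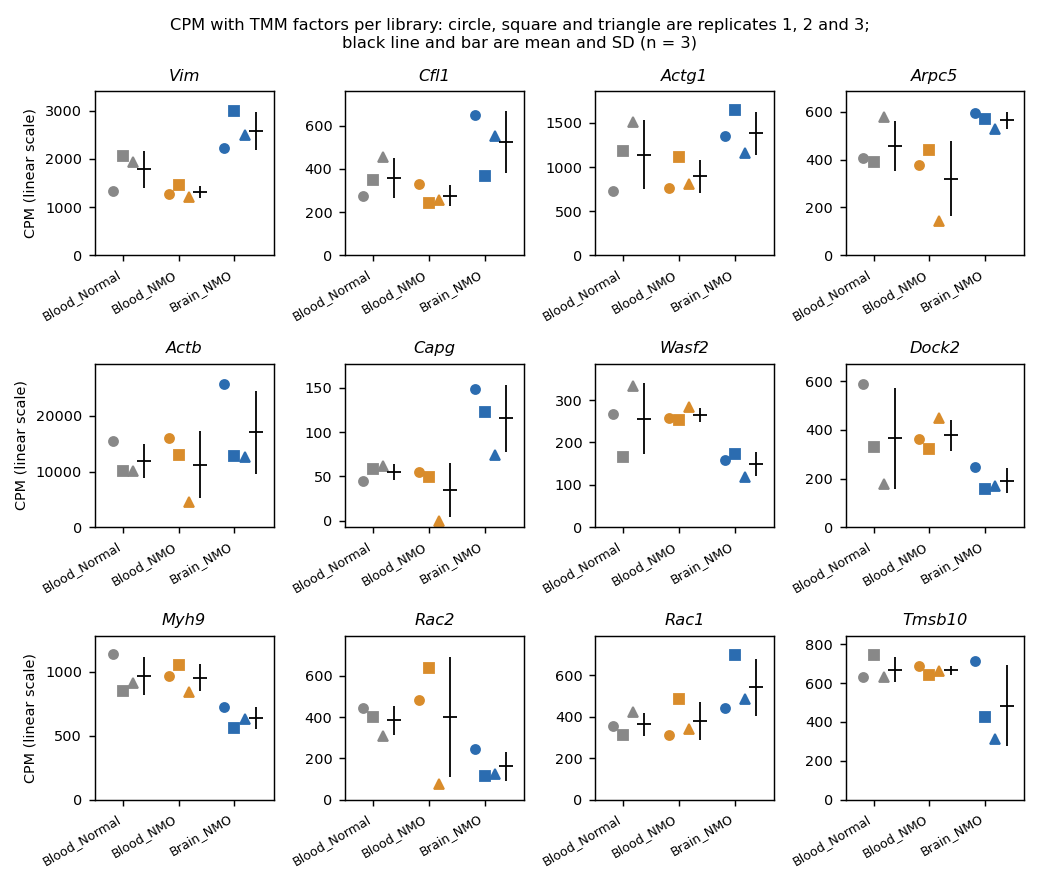
CPM of 12 of the genes on linear axes, 1 point per library (circle, square and triangle for replicates 1, 2 and 3), with the mean and SD of each group (n = 3) as a black line and bar. Brain libraries lie above all blood libraries for Vim and Capg and below all of them for Myh9; Blood_NMO replicate 3 is the low triangle of Actb, Arpc5, Capg and Rac2.

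Rac2 and Dock2 passed a p under 0.05 before adjustment, both lower in brain than in the mean of both blood groups. Rac2 is the haematopoietic Rac, which in leukocytes drives leading-edge actin assembly and the oxidase burst. It measured 243, 115 and 126 CPM in Brain_NMO, 485, 639 and 74.1 CPM in Blood_NMO and 443, 401 and 308 CPM in Blood_Normal. The brain libraries lay below 5 of the 6 blood libraries, and Blood_NMO replicate 3 was lower still. Over both blood groups its log2 fold change was -1.28 (SE 0.58, adjusted p = 0.618), with an unadjusted p of 0.0449 in edgeR's fit. Without Blood_NMO replicate 3 it was -1.51 (adjusted p = 0.0861), and without Brain_NMO replicate 2 it was -1.07 (adjusted p = 0.770). Rac1, the Rac of most cell types, measured 443, 699 and 486 CPM in Brain_NMO, 314, 484 and 339 CPM in Blood_NMO and 354, 312 and 422 CPM in Blood_Normal. It lay above Blood_Normal in all brain libraries (log2 fold change 0.58, SE 0.39, adjusted p = 1) and overlapped Blood_NMO.

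Dock2 encodes the leukocyte exchange factor that loads Rac with GTP. It measured 249, 156 and 170 CPM in Brain_NMO, 361, 323 and 448 CPM in Blood_NMO and 589, 331 and 179 CPM in Blood_Normal. The brain libraries lay below the Blood_NMO libraries (log2 fold change -0.98, SE 0.49, adjusted p = 0.802), and Blood_Normal replicate 3 lay inside their range. Arhgdib ranged from 53.5 to 522 CPM and overlapped between the groups. Natural killer (NK) cell transcripts moved in the same direction as Rac2 and Dock2. The summed level of 8 NK markers was 2045 to 3458 CPM in the blood libraries and 48.2 to 344 CPM in the brain libraries, where Txk was at 0, and Gzma alone was at 1117 to 1801 CPM in blood. Platelet transcripts (502 to 3155 CPM in blood, 0 to 39.5 CPM in brain) moved the same way, as did erythroid transcripts (893 to 5380 CPM and 1.04 to 399.9 CPM) and T cell transcripts (31.7 to 186 CPM and 0 to 22.9 CPM). The part of these lists in the Rac2 and Dock2 values was not tested.

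Cdc42, which steers cell polarity, measured 657, 1081 and 820 CPM in Brain_NMO, 830, 880 and 1020 CPM in Blood_NMO and 745, 736 and 646 CPM in Blood_Normal. It was the only one of the 47 genes higher in all Blood_NMO than in all Blood_Normal libraries (log2 fold change 0.36, SE 0.31, adjusted p = 1). Iqgap1, a scaffold that binds Rac1 and Cdc42, measured 838, 769 and 1109 CPM in Brain_NMO, 1113, 1092 and 327 CPM in Blood_NMO and 1191, 1218 and 901 CPM in Blood_Normal, and Rhoa, which drives contraction, ranged from 190 to 680 CPM. Both overlapped between all groups.

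Myh9, the heavy chain of non-muscle myosin IIA and the main motor of leukocyte contraction, was the one gene of myosin II that did not overlap between brain and blood. It measured 725, 558 and 630 CPM in Brain_NMO, 964, 1048 and 840 CPM in Blood_NMO and 1135, 852 and 910 CPM in Blood_Normal. All brain libraries lay below all blood libraries, with means of 638 ± 83.6 CPM (SD, n = 3) in Brain_NMO and 958 CPM over the 6 blood libraries. Over both blood groups its log2 fold change was -0.59 (SE 0.26, adjusted p = 0.618), with an unadjusted p of 0.0425 in edgeR's fit. Over 19 alternative settings the value ranged from -0.69 to -0.48, and the unadjusted p was under 0.05 in 7 of them. The NK, platelet, erythroid and T cell markers given above moved in the same direction as Myh9, and their part was not tested.

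The regulatory light chains bind to myosin heavy chains and control contraction. Myl12a measured 423, 625 and 341 CPM in Brain_NMO, 402, 330 and 152 CPM in Blood_NMO and 359, 306 and 449 CPM in Blood_Normal. Myl12b measured 219, 85.3 and 120 CPM in Brain_NMO, 177, 180 and 139 CPM in Blood_NMO and 164, 208 and 129 CPM in Blood_Normal. Both overlapped between all groups, as did Myl6 (261 to 921 CPM), and reads of the closely similar Myl12a and Myl12b could be shared by the counting.

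Of the 6 crosslinkers and adhesion genes, 4 had a fitted log2 fold change below 0 in Brain_NMO over Blood_NMO, and none passed before adjustment. Tln1, the talin that activates integrins, measured 858, 309 and 404 CPM in Brain_NMO, 917, 724 and 437 CPM in Blood_NMO and 905, 727 and 749 CPM in Blood_Normal. Vcl, its partner vinculin, measured 45.2, 0 and 44.6 CPM in Brain_NMO, 63.0, 55.1 and 53.4 CPM in Blood_NMO and 66.8, 38.5 and 39.4 CPM in Blood_Normal. The brain libraries of Vcl lay below those of Blood_NMO, at a log2 fold change of -0.93 (SE 1.60), or -0.33 without Brain_NMO replicate 2. Lcp1, the leukocyte bundling protein L-plastin, ranged from 223 to 1018 CPM. Flna (filamin A, 283 to 781 CPM), Fermt3 (kindlin-3, 121 to 287 CPM) and Zyx (zyxin, 105 to 442 CPM) also overlapped between all groups. Without Blood_NMO replicate 3, Zyx had a log2 fold change of -1.03 between the NMO groups (adjusted p = 0.677).

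The membrane linkers showed small fold changes. Msn, the main ezrin-family protein of leukocytes, measured 728, 343 and 470 CPM in Brain_NMO, 689, 574 and 482 CPM in Blood_NMO and 608, 439 and 476 CPM in Blood_Normal, with a log2 fold change between the NMO groups of -0.18 (SE 0.38). Ezr measured 295, 271 and 256 CPM in Brain_NMO, 368, 354 and 237 CPM in Blood_NMO and 401, 427 and 363 CPM in Blood_Normal. The brain libraries of Ezr lay below those of Blood_Normal (log2 fold change -0.53, SE 0.40, adjusted p = 1) and overlapped those of Blood_NMO.

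Counted over all roles, 5 of the 47 genes were higher (Vim, Cfl1, Actg1, Arpc5 and Capg) and 5 lower (Wasf2, Evl, Dock2, Myh9 and Vcl) in all Brain_NMO than in all Blood_NMO libraries, where 6.3% of all genes tested were higher and 6.05% lower in this way. Against Blood_Normal, 6 were higher (Vim, Pfn1, Arpc1b, Arpc3, Capg and Rac1) and 5 lower (Rac2, Myh9, Ezr, Capzb and Evl), with backgrounds of 6.07% and 9.37%. Against all 6 blood libraries, 2 were higher (Vim and Capg, background 3.57%) and 2 lower (Myh9 and Evl, background 3.13%).

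The comparison of Blood_NMO with Blood_Normal asks whether circulating monocytes differ on day 1 of the model. None of the 47 genes passed a p under 0.05 in either direction before adjustment, with backgrounds of 0.465% higher and 0.247% lower. The median log2 fold change of the 47 genes was -0.15, and that of all genes tested was -0.16. Without Blood_NMO replicate 3 both medians turned positive, at 0.06 and 0.07. Of the 47 genes, 1 was higher (Cdc42) and 1 lower (Coro1b) in all libraries of Blood_NMO, where 2.34% and 4.45% of all genes tested were. The 95% interval lay within a 2-fold change either way for 8 of the 47 genes (17%), against 1.02% of all genes tested. Here too, genes of like level were not compared.

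Ratios of related genes within a library do not depend on library size or scaling factors, so 12 such ratios were compared between the 3 brain and the 6 blood libraries with an exact two-sided permutation test. The smallest p this design can give is 0.0238. None of the 12 passed an adjusted p of 0.05, and 3 reached the smallest p, each with an adjusted p of 0.0952. With adjustment over 12 ratios, 3 ratios at the smallest p cannot pass, so the adjusted values cannot decide on a few ratios. The ratio of Tmsb10 to Tmsb4x was -2.89, -3.38 and -3.61 on the log2 scale in the brain libraries and -2.85 to -1.80 in the blood libraries. It was 0.60 times the blood level in brain (a log2 difference of -0.74, exact p = 0.0238), and the closest brain and blood libraries differed by little. Both thymosin transcripts are short and have processed copies in the genome, so part of their reads may be shared with these.

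The ratios of Evl to Vasp and of Wasf2 to Was also did not overlap between brain and blood. Evl to Vasp rests on counts of 0, of Evl in Brain_NMO replicate 2 and of Vasp in Blood_NMO replicate 3, so no size is given for it. In the other libraries the log2 ratio was -2.63 and -3.45 in brain and -1.97 to -1.27 in blood. Wasf2 to Was was 0.80, 0.35 and 0.71 in brain and 0.83 to 7.97 in blood on the log2 scale, the highest value coming from Blood_NMO replicate 3, where Was was at 1.08 CPM. The difference of -2.09 became -1.04 without that library.

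The log2 ratio of Rac1 to Rac2 was 0.86, 2.60 and 1.95 in the brain libraries, -0.32, -0.36 and 0.45 in Blood_Normal and -0.63, -0.40 and 2.19 in Blood_NMO. Blood_NMO replicate 3 lay inside the brain range, and the other 5 blood libraries lay below it. The difference was 1.65 (exact p = 0.0714, adjusted p = 0.171) with all libraries and 2.05 (exact p = 0.0357, adjusted p = 0.107) without that library. Gsn and Capg were both at 0 in Blood_NMO replicate 3, so their ratio has no value there. Without that library Gsn to Capg was lower in brain by a log2 difference of -1.12 (exact p = 0.107, adjusted p = 0.257), and brain and blood overlapped. The other 7 ratios, Actg1 to Actb, Coro1b to Coro1a, Myl12a to Myl12b, Capza2 to Capza1, Ezr to Msn, Actr3 to Actr2 and Vcl to Tln1, overlapped, with exact p from 0.19 to 0.952.

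**Figure D4:**
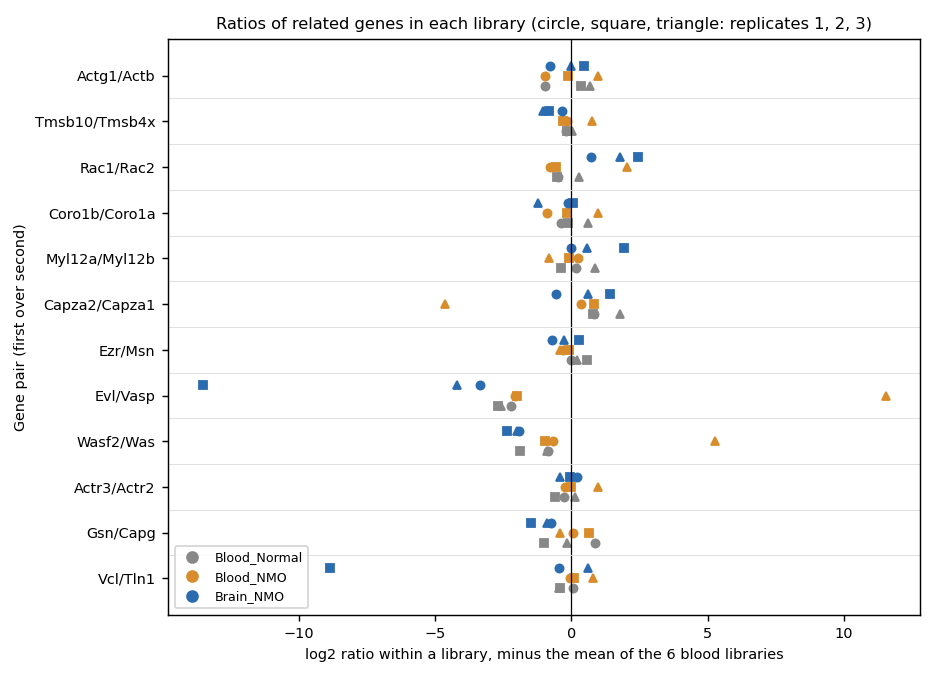
Log2 ratios of 12 gene pairs in each library, minus the mean of the 6 blood libraries; circle, square and triangle are replicates 1, 2 and 3. The brain points of Tmsb10/Tmsb4x, Evl/Vasp and Wasf2/Was lie below all blood points, and the farthest points of Evl/Vasp, Wasf2/Was and Vcl/Tln1 come from libraries in which 1 of the 2 genes was at or near 0. The Gsn/Capg point of Blood_NMO replicate 3 is set by the pseudocount, as both genes were at 0.

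A wider list of 82 other genes of actin and motility gave 77 that were tested. Diaph1, Diaph2 and the symbol Septin6 were not listed by those names, and Wasf1 and Parva did not pass the filter. Between Brain_NMO and Blood_NMO, 0 of the 77 were called at an adjusted p under 0.05; before adjustment, 1 was higher and 6 were lower, where 1.48% and 3.84% of all genes tested were. No overlap was seen for 7 higher and 10 lower of the 77, where the shares of all genes tested were 6.3% and 6.05%. Their median log2 fold change was 0.20, as for the 47 genes.

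Itga4, the alpha-4 integrin that binds VCAM-1 on inflamed endothelium, had the smallest p of the wider list. It measured 54.1, 142 and 107 CPM in Brain_NMO, 447, 363 and 739 CPM in Blood_NMO and 577, 723 and 420 CPM in Blood_Normal, and all brain libraries lay below all blood libraries. Its log2 fold change over Blood_NMO was -2.35 (SE 0.49, adjusted p = 0.0823). Over Blood_Normal it was -2.50 (adjusted p = 0.0642, edgeR's test) and not called. Over both blood groups it was -2.43 (SE 0.46, adjusted p = 0.0347), the only call among the 77 genes. Of all genes tested, 0.435% were called against both blood groups (0.297% lower). The Itga4 call held under 14 of 19 alternative settings. There the log2 fold changes ranged over all 19 from -2.74 to -2.13 and adjusted p from 0.000135 to 0.120. It was lost with DESeq2 and without Blood_Normal replicate 2 or 3 or Brain_NMO replicate 1 or 3, where the log2 fold change was -2.33, -2.50, -2.13 and -2.46 in that order of libraries. The same NK, platelet, erythroid and T cell markers moved in this direction too, and their part in the Itga4 values was not tested.

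Of the 6 WAVE complex subunits tested in the wider list, 0 passed after adjustment between Brain_NMO and Blood_NMO. The share of all genes tested was 0.247%. At an unadjusted p under 0.05 in edgeR's test, Cyfip1 was higher and Cyfip2 and Abi1 were lower. Among all genes tested, 1.48% were higher and 3.84% lower in this way. The 6 subunits were not set as a list before the tests, so their count is not a result about the complex. For Nckap1l, Brk1 and Abi3 the log2 fold changes over Blood_NMO were 0.70 (SE 0.63), 1.07 (SE 1.35) and 0.89 (SE 1.41). Brk1 was at 0 in Blood_NMO replicate 3 and at 91.5 and 65.6 CPM in replicates 1 and 2. It measured 72.1 to 131 CPM in Brain_NMO and overlapped with Blood_Normal (108 to 134 CPM). Cyfip1 measured 195, 463 and 279 CPM in Brain_NMO, 92.5, 145 and 4.97 CPM in Blood_NMO and 55.8, 110 and 81.6 CPM in Blood_Normal (log2 fold change over Blood_NMO 1.95, SE 0.89, adjusted p = 0.802). Its paralog Cyfip2 measured 20.9, 10.9 and 50.1 CPM in Brain_NMO, 174, 142 and 54.9 CPM in Blood_NMO and 215, 117 and 201 CPM in Blood_Normal (log2 fold change -2.18, SE 0.81, adjusted p = 0.802). Neither overlapped between brain and blood, in opposite directions. For both genes Blood_NMO replicate 3 was the lowest blood library, and fold changes without it are not given. Abi1, another subunit, measured 33.7 ± 6.16 CPM (SD, n = 3) in Brain_NMO and 84.8 to 159 CPM over the blood libraries (log2 fold change over Blood_NMO -2.07, SE 0.72, adjusted p = 0.727). Dock10, an exchange factor for Cdc42, measured 46.4, 125 and 35.5 CPM in Brain_NMO and 169 to 239 CPM over the blood libraries (log2 fold change over Blood_NMO -1.60, SE 0.62, adjusted p = 0.802).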

How the data were processed

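The libraries were made with a QuantSeq 3′ kit. Per the labels and the study's methods, the authors mapped the single-end reads to mm10 by Bowtie2 and took gene-wise coverage, unique and multiple alignments included, from bedtools. The deposited values are raw read counts per gene symbol, taken before their TMM and CPM scaling in edgeR. Tool versions and the annotation are not given in the sources used here. Each library lists 23282 entries. Where a symbol recurred (35 symbols), its entry with the highest total was retained, and none of these was among the 47 genes.

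From these counts, edgeR 4.0.16 (R 4.3.3) was used with TMM factors, filterByExpr and the quasi-likelihood test on all 9 libraries in a single fit without an intercept, with Benjamini-Hochberg adjustment over the 10107 genes tested. The common dispersion was 2.87. Ratios were taken as log2 of counts plus 0.5 and compared by exact permutation (Python 3.11.15, scipy 1.17.1) with adjustment over the 12 ratios. The scripts were tested on simulated data. The 47 genes, the wider list, the marker lists and the ratios were chosen with earlier results of these data known. Values per library were given for genes with an unadjusted p under 0.05 or no overlap in a comparison, genes of the ratios and the highest gene of each role. Genes of the wider list were named by unadjusted p between the NMO groups, at most 4 a direction. Nckap1l, Brk1 and Abi3 were added as the other WAVE complex subunits tested. Motifs were searched on both strands; the CArG box is its usual consensus, and the other motifs were exact. Promoter sequences are from RefSeq (GRCm38.p6). Replicate numbers were not used to pair the libraries in the main fit, and the labels and methods do not say whether they do. The alternatives were RLE factors, TMMwsp factors, library sizes alone, no Rn45s, 2 other expression filters, only the groups compared, duplicate symbols summed, the replicate number as a block, DESeq2 1.42.0, limma 3.58.1 (voom with quality weights), other pseudocounts for the ratios and each library left out in turn. No p-value was computed for the list as a whole.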

Additional observations from a re-analysis of the deposited data

How the results depend on the processing

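The count of the 47 genes called at an adjusted p under 0.05 was 0 in all 4 comparisons and stayed at 0 under every alternative except 2. With no expression filter it was 2 (Actb and Vim) between Brain_NMO and Blood_NMO, 1 (Actb) between Brain_NMO and Blood_Normal and 2 (Actb and Vim) against both blood groups. With limma-voom and quality weights it was 1 (Vim) between Brain_NMO and Blood_NMO and 1 (Vim) against both blood groups. The cause was not tested. The limma-voom fit used the same filter and TMM factors as the main fit. Between Brain_NMO and Blood_NMO it moved the median log2 fold change of all genes tested from 0.05 to -0.65. The median of the 47 genes moved from 0.20 to -0.04, and the cause of these shifts was not tested. Requiring 10 or more counts in each of the 9 libraries left 41 of the 47 genes. Among all genes tested, 25 were called between Brain_NMO and Blood_NMO (2 higher and 23 lower), 7 with a fit to those groups alone, 16 with the 10-count filter, 110 without a filter, 421 with DESeq2, 51 with limma-voom (44 higher and 7 lower), 15 without Brain_NMO replicate 3 and 16 without Blood_Normal replicate 3. Against both blood groups 44 were called (14 higher and 30 lower), 57 with RLE factors (27 higher and 30 lower), 181 without a filter, 640 with DESeq2, 122 with limma-voom (101 higher and 21 lower), 90 without Blood_NMO replicate 3, 27 without Brain_NMO replicate 3 and 21 without Blood_Normal replicate 3. Between Brain_NMO and Blood_Normal 25 were called (3 higher and 22 lower), 23 with a fit to those groups alone (15 higher and 8 lower), 33 with limma-voom (27 higher and 6 lower), 115 without a filter, 502 with DESeq2, 62 without Blood_NMO replicate 3 and 11 without Blood_Normal replicate 3. Between the blood groups 0 were called, 2 without a filter and 70 with DESeq2.

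Leaving out 1 library at a time left the count of the 47 genes called after adjustment at 0 in each comparison. Genes lower at an unadjusted p under 0.05 between Brain_NMO and Blood_NMO were 0 with all libraries, 5 without Blood_NMO replicate 3 (Capzb, Rac2, Arhgdib, Myh9 and Zyx) and 3 without Brain_NMO replicate 1 (Tmsb10, Rac2 and Tln1), where 3.84%, 4.60% and 4.38% of all genes tested were lower. The median log2 fold change of all genes tested was -0.16 and -0.28 in the latter fits. With all libraries, library sizes alone gave 2 higher (Actb and Vim) and 3 lower (Rac2, Dock2 and Myh9), where 1.57% and 4.67% of all genes tested passed. RLE factors gave 5 higher (Actb, Actg1, Cfl1, Arpc5 and Vim) and 0 lower, where 1.77% and 3.81% passed. The limma-voom fit gave 6 higher and 7 lower, where 3.75% and 8.86% of all genes tested passed. Against both blood groups, where Rac2, Dock2 and Myh9 were lower, RLE factors kept Rac2 alone and TMMwsp factors none, with a background of 4.07% lower in each. Over the libraries left out, the log2 difference of the ratios between brain and blood ranged from -0.40 to 0.24 for Actg1/Actb, -0.23 to 0.11 for Actr3/Actr2, -0.43 to 1.02 for Capza2/Capza1, -0.48 to 0.0011 for Ezr/Msn, -4.65 to 0.10 for Vcl/Tln1, 1.25 to 2.12 for Rac1/Rac2, -1.23 to -0.82 for Gsn/Capg (-1.12 without Blood_NMO replicate 3, the other values resting in part on a pseudocount), -0.94 to -0.58 for Tmsb10/Tmsb4x, -8.86 to -3.77 for Evl/Vasp (set by counts of 0 and the pseudocount) and -2.47 to -1.04 for Wasf2/Was. The first 5 changed sign in this way. With a brain library left out, 2 against 6 libraries cannot give an exact p below 0.0714.

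Replicate numbers are shared by the groups, and neither the labels nor the methods say whether they pair the libraries. After scaling, the deviations of libraries with the same number correlated at -0.0102 to 0.116 (1 of 9 pairs above 0.1). Those of different numbers correlated at -0.0956 to 0.0301. Before scaling, replicate 1 stood apart in each group. Rn45s took 43.6%, 42.2% and 39.3% of its counts in Blood_Normal, Blood_NMO and Brain_NMO, and 28.4% to 35.0% in the other libraries. Its TMM factor was 0.801, 0.832 and 0.854, against 0.965 to 1.46 in the others. The main fit did not use the numbers as a pairing, and what they mark was not tested. With the replicate number as a block, 0 of the 47 genes were called after adjustment in each comparison. Before adjustment, 3 (Actb, Actg1 and Vim) were higher between Brain_NMO and Blood_NMO, where 1.42% of all genes tested were.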
